A study of Mus musculus with 4 samples.

Results

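The 38 genes described here are an S-phase list: the Mcm2 to Mcm7 helicase subunits, licensing and fork factors, nucleotide enzymes, and the histone and chromatin factors that work at replicating DNA. They were taken by name, and all 38 were found among the 31053 genes of the 4 count matrices. Their UMIs (unique molecular identifiers, 1 per captured transcript) were followed across the germinal centre (GC) B cell subtypes and the pseudotime that the authors deposited, across the 4 genotypes, and into cells that the deposited annotation leaves out.

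A cell about to replicate loads the Mcm2-7 ring at its origins with the help of Orc and Cdc6, and geminin (Gmnn) blocks a new round of loading once S phase has begun. Cdc45 and the GINS complex turn the ring into an active helicase, primase and the polymerases copy the strands around the Pcna clamp, and ribonucleotide reductase and thymidylate synthase supply the nucleotides. Many of these genes are E2F targets that are switched on before S phase. In the GC, centroblasts (CB) of the dark zone divide rapidly, and centrocytes (CC) of the light zone are mostly between divisions.

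Splenic B220+IgD- cells were sorted from 8-week-old female mice on a C57BL/6J background on day 10 after immunisation with sheep red blood cells (SRBC). The groups were WT, C (C_het_KO, 1 floxed allele of Crebbp), K (K_het_KO, 1 floxed allele of Kmt2d) and CK (CK_het_DKO, 1 floxed allele of each). All of them, WT included, carry Cg1-Cre, which is driven by the immunoglobulin gamma 1 locus and so acts in activated B cells, and sorted cells that never switched it on keep both alleles. Each genotype is 1 mouse and 1 library, so no test between genotypes was possible, and no difference below has a replicate check. Intervals are 95% and cover counting error only, since they hold neither the spread between mice nor that between libraries. Those of summed UMIs also leave out the spread between cells of a library.

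The 4 libraries held 8071 to 12852 barcodes and 33270825 to 39803865 UMIs, and the deposited annotation names 1227, 2041, 2583 and 3953 GC B cells in WT, C, K and CK. Median depth of the annotated cells differed and was deepest in WT (4931 UMIs) and shallowest in CK (3653). The K library stood apart: 2 of the clusters made here held 795 of 1010 and 1090 of 1126 cells from K, and its median gene stood at -0.15 (log2) against WT in CB. Ratios between libraries are therefore measured from the median log2 ratio of all genes with at least 20 UMIs over both. Of 38866 distinct barcodes, 143 occurred in more than 1 library. Crebbp reached 68.4, 43.0, 38.6 and 38 UMIs per 1000000 UMIs (CPM) in annotated cells of WT, C, K and CK, and Kmt2d 18.5, 21.3, 9.85 and 15.1, so Crebbp was also low in the library labelled K, as it was in T-like cells (48.2 CPM in K, 78.0 in WT). The 3′ tags may lie outside the deleted part, so these values do not check the labels. Annotated CB carried the GC gene Bcl6 at 69.6, 57.7, 36.4 and 48.4 CPM in WT, C, K and CK, against 9.64 to 14.1 CPM in T-like clusters. Annotated prememory cells held only 3.79 to 11.3 CPM of it. In annotated cells all 9 T cell markers had UMIs, at a summed 204 to 270 CPM against 8402 to 8998 CPM in T-like clusters.

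The letters before the members' transcription starts are shown first, since the list holds many genes known as E2F targets. RefSeq windows on GRCm38.p6 existed for 30 of the 38 members, and the 250 bases before each start were searched on both strands. The E2F letters searched were TTTGGCGC, TTTGCCGC, TTTCGCGC and TTTCCCGC, and a match may overlap a match on the other strand. They stood before 8 of 30 members (26.7%) and before 583 of 27025 genes with a window (2.16%). CCAAT, the letters read by NF-Y, stood before 21 of 30 members (70.0%) and before 37.5% of all genes, and both before 5 members (16.7%) against 0.966% of genes. A match is a description of letters, not a measured site. Those of Mcm6, Mcm5, Dtl and Pola1 are shown with the E2F letters in capitals, with Mcm3, which has 3 CCAAT and none of the E2F letters, for contrast. Each run is the 150 bases before the start, 5′ to 3′ on the gene's strand.
Mcm6, chr1:128359706-128359855, minus strand: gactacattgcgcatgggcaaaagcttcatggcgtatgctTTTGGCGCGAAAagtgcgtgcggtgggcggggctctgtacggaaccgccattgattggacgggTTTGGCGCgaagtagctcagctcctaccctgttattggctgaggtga
Mcm5, chr8:75109359-75109508, plus strand: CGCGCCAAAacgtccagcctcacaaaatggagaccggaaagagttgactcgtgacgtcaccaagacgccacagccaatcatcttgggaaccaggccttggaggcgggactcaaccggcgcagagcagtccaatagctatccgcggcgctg
Dtl, chr1:191575545-191575694, minus strand: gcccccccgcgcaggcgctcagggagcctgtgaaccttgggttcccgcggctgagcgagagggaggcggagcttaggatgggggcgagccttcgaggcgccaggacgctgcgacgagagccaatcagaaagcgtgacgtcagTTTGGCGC
Pola1, chrX:93632156-93632305, minus strand: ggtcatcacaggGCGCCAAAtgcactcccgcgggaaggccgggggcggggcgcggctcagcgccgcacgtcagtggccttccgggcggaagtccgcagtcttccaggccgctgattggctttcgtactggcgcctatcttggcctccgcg
Mcm3, chr1:20820313-20820462, minus strand: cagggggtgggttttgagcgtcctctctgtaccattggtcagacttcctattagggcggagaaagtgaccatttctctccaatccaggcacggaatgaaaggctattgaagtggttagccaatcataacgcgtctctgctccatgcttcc
In Mcm6, the replicative helicase subunit gene, 3 matches lay in the stretch shown, and the 2 that begin 110 and 106 bases before the start overlap. In Mcm5, another subunit of the ring, the matches begin 153 and 149 bases before the start and overlap, so the first is partly outside the run. In Dtl, the substrate receptor of an E3 ligase that acts at Pcna, the match begins 8 bases before the start and so ends next to it. The member windows not found were those of Atad2, Dscc1, Gins2, Gmnn, Mcm4, Rfc2, Tipin and Usp1.

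Every one of the 38 members was highest in early CB among early CB, CB, transitioning cells and CC, and this held in each of the 4 libraries. Summed over the members, early CB held 11272 (10847 to 11709), 11632, 10602 and 12122 CPM in WT, C, K and CK. CC held 1344, 1421, 1479 and 1745 CPM in the same order, so the subtypes did not overlap in any library. Early CB exceeded CC by 8.63-fold, 8.30-fold, 7.14-fold and 7.16-fold respectively, and all 38 members passed 1.5-fold in each library, beside 20.1%, 19.9%, 19.2% and 19.2% of genes. The authors named the subtypes from expression that includes such genes, so these values describe the labels rather than test them. The WT early CB were only 38 cells, against 110, 190 and 342 in C, K and CK.

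**Figure D1:**
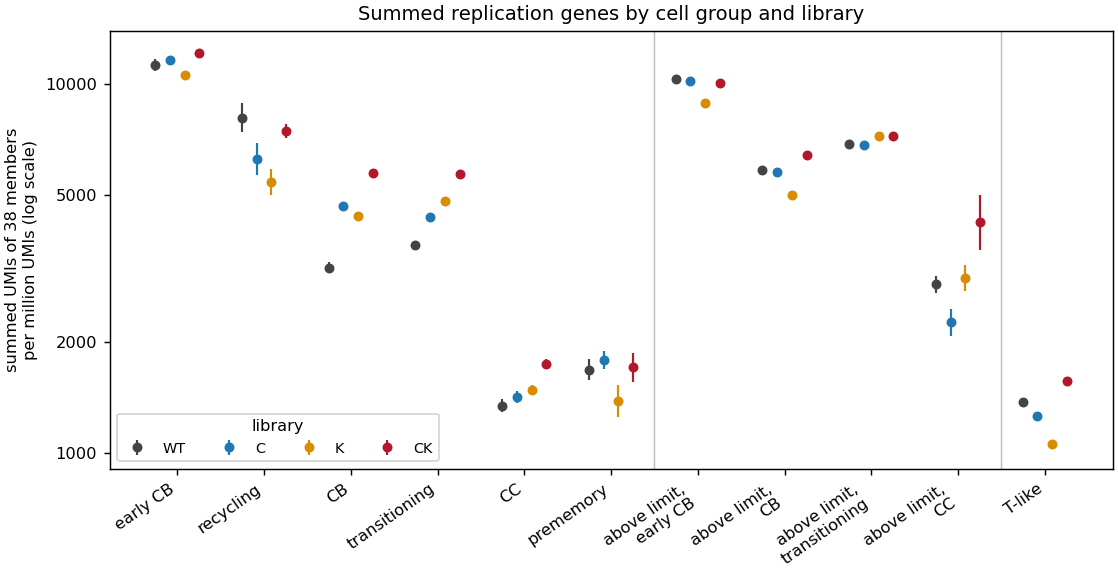
Summed UMIs of the 38 members per 1000000 UMIs (log axis) in each annotated subtype, in unannotated cells above the gene limit by assigned subtype, and in T-like cells; points are the 4 libraries and bars are exact 95% Poisson intervals. Early CB sit at 10602 CPM or more in all libraries, and the 4 libraries spread from 3180 to 5728 CPM in annotated CB but from 4995 to 6417 CPM in CB above the limit.

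Recycling cells, a small subtype of 8 to 49 cells, held 5444 to 8119 CPM and prememory cells 1385 to 1789 CPM. In WT, CB at 3180 CPM lay below transitioning cells at 3663 CPM, and in K 4380 lay below 4828, whereas in C and CK the sums in CB (4663 and 5728) and transitioning cells (4364 and 5699) were reversed or nearly equal. Genes of G2 and M phase followed another course: the 28 listed summed to 7788 CPM in WT CB and 3226 CPM in WT early CB, and CB were their highest subtype in all 4 libraries (7264 to 9253 CPM). T-like cells of the same libraries, of whose clusters 1 held 3800 CPM of the members and 2974 CPM of the G2M genes, held 1055 to 1569 CPM of the members, close to the level in CC.

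The licensing genes were prominent in both early CB and transitioning cells. Mcm6 stood at 616, 577, 551 and 590 CPM in early CB of WT, C, K and CK, at 127, 177, 176 and 202 in CB, at 291, 337, 382 and 411 in transitioning cells and at 73.8, 83.9, 96.3 and 109 in CC. It was thus higher in transitioning cells than in CB in every library. Mcm3 behaved alike, with 527 to 621 CPM in early CB, 127 to 234 in CB and 259 to 375 in transitioning cells. Mcm2, at 234 to 357 CPM in early CB, stood at 63.4 to 89.2 in CB and 126 to 192 in transitioning cells. Mcm5 spanned 390 to 528 CPM in early CB, and Mcm7 380 to 519. Mcm7 was level between CB (126 CPM) and transitioning cells (126 CPM) in WT. Gmnn, the licensing inhibitor, stood at 520 to 560 CPM in early CB and was higher in CB than in transitioning cells in each library, at 154 against 137 CPM in WT and 292 against 224 CPM in CK.

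**Figure D2:**
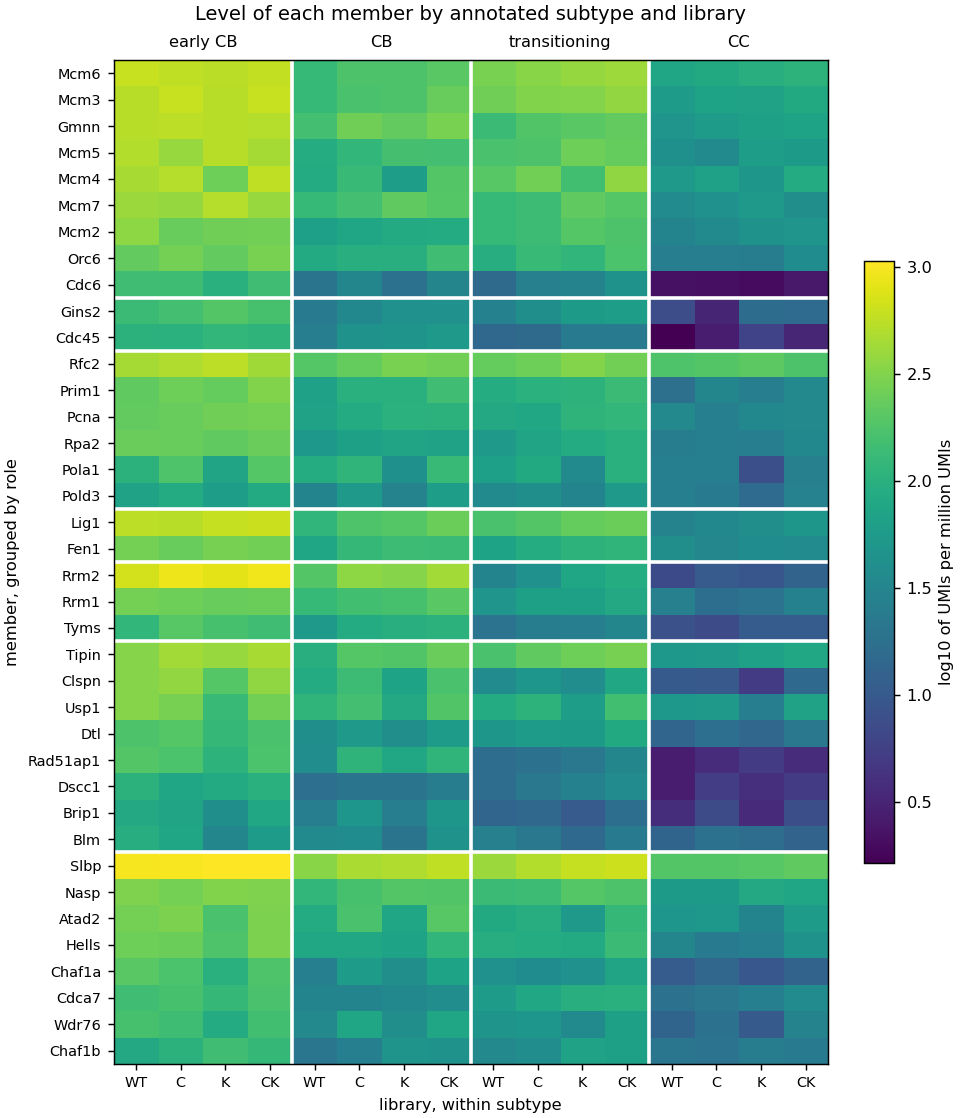
Level of each of the 38 members (log10 of UMIs per 1000000 UMIs, colour) in 4 annotated subtypes and 4 libraries, in blocks by role from licensing at the top to histone supply and chromatin at the bottom. The early CB block is the brightest for every member, Rrm2 drops from CB to transitioning cells, and Mcm4 and Pola1 are darker in K.

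Nucleotide supply separated CB from transitioning cells. Rrm2, the S-phase subunit of ribonucleotide reductase, held 188, 357, 329 and 437 CPM in CB of WT, C, K and CK but 30.6, 44.0, 74.3 and 91.4 CPM in transitioning cells, and 7.11 to 12.9 CPM in CC. Its early CB level of 693 to 928 CPM exceeded that of CC by 6.21 to 6.65 on the log2 scale, and no other member spanned as much in any of the 4 libraries. The next were Rad51ap1 in WT (6.14) and Cdc6 in the mutant libraries (5.65 to 6.09). Rrm1, the large subunit, stood at 125 CPM in WT CB and 48.5 in WT transitioning cells. Tyms, thymidylate synthase, was at 54.0 and 19.6 CPM in the same cells. Across the 38 members, transitioning cells lay above CB by more than 1.5-fold for 9 members (12.3% of genes) and below for 7 (12.6%) in WT. The numbers above and below were 5 (9.47%) and 10 (11.6%) for C, 7 (8.53%) and 7 (11.4%) for K, and 5 (7.80%) and 9 (10.4%) for CK.

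At the fork, Cdc45 and Gins2, the partners of the active helicase, were at a few CPM in CC. Cdc45 had 3 UMIs in WT CC and 9 in CK CC, against 106 and 111 CPM in early CB of WT and CK. Gins2 fell from 136 to 186 CPM in early CB to 3.19 to 16.4 CPM in CC. Rfc2, a subunit of the clamp loader, changed least of the fork synthesis genes in each library, at 427 to 563 CPM in early CB and 175 to 208 CPM in CC, a log2 span of 1.33 to 1.43. Pcna, the sliding clamp, ran from 225 to 279 CPM in early CB to 26.5 to 35 CPM in CC. Prim1, the catalytic primase subunit, stood at 221 to 312 CPM in early CB and 18.0 to 34.3 CPM in CC. Fen1 and Lig1, which trim and seal Okazaki fragments, stood at 239 to 284 and 531 to 629 CPM in early CB and at 32.9 to 39.9 and 30.1 to 50.2 CPM in CC.

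Among fork protection genes, Tipin held 332 to 461 CPM in early CB and 51.4 to 79.0 CPM in CC, and Usp1, a deubiquitinase that acts on Pcna, 130 to 327 and 26.4 to 68.7 CPM. Clspn (claspin, a checkpoint mediator) and Rad51ap1 had log2 spans of 4.63 to 5.21 and 4.39 to 6.14 between early CB and CC. Of the histone and chromatin group, Slbp, which binds the stem-loop of histone mRNA, kept 190 to 219 CPM in CC against 982 to 1066 CPM in early CB. Nasp, a histone chaperone, kept 55.7 to 81.9 CPM in CC. Cdca7, a partner of the Hells remodeller, was higher in transitioning cells (58.3 to 99.0 CPM) than in CB (30.1 to 39.7 CPM) in all 4 libraries.

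Along pseudotime, the members started high and fell. The authors made this pseudotime from expression of the same cells and started it in CB, so the course describes the ordering rather than tests it. The position of a cell is given as the percent of the 1227 WT cells that lie before it, in 10 bins. Every member peaked in the first or the second bin in each library: 31, 35, 33 and 31 of 38 lay in the first bin for WT, C, K and CK. Those that peaked in the second bin in WT were Cdca7, Mcm3, Mcm4, Mcm6, Pold3, Prim1 and Tipin, and Cdca7 and Mcm6 did so in all 4 libraries. Summed members fell in WT from 7545 CPM in the first bin to 5601, 3857, 2651 and 1640 CPM in the next 4, and lay at 927 CPM in the last. In CK the same bins held 8655, 7131, 5229, 4008 and 2972 CPM, and the last 1152 CPM. CK lay above WT in each of these bins, and the log2 ratio of CK over WT, measured from the median gene, ran from 0.22 (0.18 to 0.26) in the first bin to 0.81 (0.71 to 0.92) in the fifth and 0.07 (-0.07 to 0.21) in the eighth. In the fifth bin C stood 0.52 (0.41 to 0.64) and K 0.63 (0.52 to 0.74) above WT. In the eighth bin C lay below WT, at -0.20 (-0.35 to -0.05), and K stood at -0.12 (-0.26 to 0.03). In the ninth bin the intervals of C, K and CK all included 0, and in the last bin CK stood at 0.36 (0.19 to 0.54). The bins did not hold the same subtypes in each library: the last was 71.5% prememory cells in WT and 75.8% CC in CK, and the eighth was 73.2% CC in WT and mainly transitioning cells (47.9%) in CK. The annotated cells end at about 2500 genes, and median depth in the fifth bin was 5064 UMIs in WT and 3214 in CK; its part in these ratios was not tested.

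**Figure D3:**
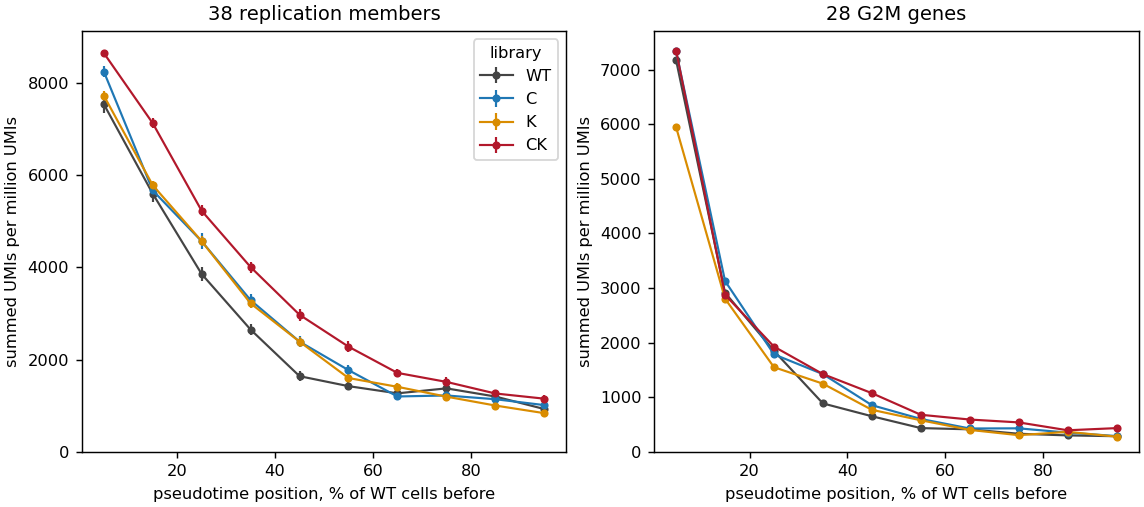
Summed UMIs per 1000000 UMIs of the 38 members (left, with exact 95% Poisson intervals) and of the 28 G2M genes (right) against pseudotime position, as the percent of WT cells before a cell, for the 4 libraries. The members decline over the first 6 bins with CK above WT in each, from 8655 against 7545 CPM to 2280 against 1423 CPM, while the G2M sum is already at 2803 to 3127 CPM in the second bin.

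The annotation ends at 2500 detected genes per cell, and the cells beyond it carry many of these transcripts. At or above that limit and below 8% mitochondrial UMIs lay 1042, 790, 897 and 810 unannotated cells of WT, C, K and CK. Labelled by their 25 nearest cells in principal components made without the members, 453, 398, 480 and 466 of them took the CB label. They held 5841 (5781 to 5902), 5773, 4995 and 6417 CPM of the members in the same order. The annotated CB of the same libraries held 3180, 4663, 4380 and 5728 CPM, so the step at the limit was widest in WT: 0.94 on the log2 scale (0.88 to 0.99), against 0.36, 0.24 and 0.22 for C, K and CK. In WT, 33 of 38 members were more than 1.5-fold higher in the cells above the limit (14.3% of all genes). The mutant libraries had 10 (C, 7.52%), 0 (K, 6.17%) and 2 (CK, 5.99%). Mcm5 rose from 90.4 to 218 CPM in WT and from 153 to 225 CPM in CK, and Chaf1a from 27.0 to 72.2 CPM in WT and from 69.8 to 93.7 CPM in CK.

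A step of this direction appeared in transitioning cells and CC and not in early CB. Above the limit, transitioning cells held 6882, 6857, 7213 and 7236 CPM of the members in WT, C, K and CK, which exceeded the annotated ones by 0.92, 0.66, 0.61 and 0.38 (log2). The few CC above the limit (45, 23, 18 and 3 cells) held 2865, 2262, 2986 and 4225 CPM, against 1344, 1421, 1479 and 1745 CPM in annotated CC. Early CB above the limit held 8906 to 10312 CPM, and their log2 ratio to annotated early CB was -0.15, -0.17, -0.26 and -0.25 for WT, C, K and CK. A cell above the limit had a median of 9081 to 12226 UMIs in CB, transitioning cells and early CB. Cells of such depth can be doublets, and with the calls of the doublet caller Scrublet removed, the step in CB was 0.94, 0.36, 0.26 and 0.24. The threshold of C was set from the other libraries, and the part of doublets that Scrublet did not mark was not tested.

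The comparison of genotypes asked whether haploinsufficiency of Crebbp, Kmt2d or both goes with a different level of the replication genes within a subtype. In annotated CB all 3 mutant libraries lay above WT. Summed members were 1.86-fold higher in CK (log2 0.89, 0.84 to 0.95), 1.53-fold in K (0.61, 0.56 to 0.67) and 1.48-fold in C (0.57, 0.51 to 0.63). All 38 members were above the median gene in C and in CK, and 32 of 38 in K. More than 1.5-fold higher were 31 members in CK (12.8% of genes), 22 in K (11.0%) and 16 in C (9.21%). More than 1.5-fold lower were 0 members in CK (10.4%), 2 in K (17.0%) and 0 in C (7.79%). The 2 members low in K were Blm and Pola1. At 2-fold, 13 members were higher in CK CB, beside 5.08% of genes.

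By role, CK exceeded WT in CB by 0.84 (0.74 to 0.95) for licensing, 1.03 (0.59 to 1.49) for helicase activation, 0.69 (0.55 to 0.83) for fork synthesis, 1.06 (0.84 to 1.28) for Okazaki fragment maturation, 1.07 (0.91 to 1.23) for nucleotide supply, 1.01 (0.87 to 1.16) for fork protection and 0.86 (0.75 to 0.97) for histone supply and chromatin, all on the log2 scale. The widest ratio was that of Rad51ap1, at 39.5 CPM in WT CB and 112, 77.3 and 114 CPM in C, K and CK, a log2 ratio of 1.58 (1.10 to 2.09) for CK. Chaf1a followed at 1.41 (0.84 to 2.05), from 27.0 CPM in WT to 57.2, 40.4 and 69.8. Tipin stood at 94.6 CPM in WT and 192, 185 and 243 CPM in the mutants, 1.40 (1.09 to 1.73). Rrm2 was 1.26 (1.04 to 1.49) higher. The narrowest ratios were those of Blm, the Bloom helicase, at 35.3 and 44.8 CPM in WT and CK (0.39, -0.14 to 0.95), Cdca7 (0.44, -0.13 to 1.06) and Rpa2, of the single-strand binding complex (0.46, 0.02 to 0.92). Each Mcm subunit was higher in CK, by 0.54 (Mcm2), 0.93 (Mcm3), 1.15 (Mcm4), 0.81 (Mcm5), 0.72 (Mcm6) and 0.66 (Mcm7).

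In annotated transitioning cells the summed members were 1.54-fold higher in CK (0.63, 0.59 to 0.66), 1.45-fold in K (0.54, 0.50 to 0.57) and 1.19-fold in C (0.25, 0.21 to 0.29). More than 1.5-fold higher were 23 members in CK (7.52%), 18 in K (8.46%) and 1, Cdc6, in C (5.02%). Lower by that fold were 0 in CK (7.80%), 2 in K (17.2%) and 0 in C (5.41%). Rrm2 and Cdc6 had the widest CK ratios here, 1.57 (1.22 to 1.94) and 1.5 (1.00 to 2.03), and Blm was the 1 member below the median gene, at -0.23 (-0.66 to 0.21). In CC, where 34 members had at least 20 UMIs over CK and WT, 10 were more than 1.5-fold higher (6.40%) and 0 lower (7.17%), and 2 were higher by over 2-fold (1.41%). The 4 with fewer UMIs were Cdc45, Cdc6, Dscc1 and Rad51ap1. The CC sum was 1.26-fold higher in CK (0.34, 0.27 to 0.41), 1.22-fold in K (0.28, 0.21 to 0.36) and 1.04-fold in C (0.06, -0.02 to 0.14). Among CC members with at least 50 UMIs over both, Wdr76 was widest at 1.13 (0.46 to 1.85), with Gins2 at 1.01 (0.12 to 2.0) and Cdca7 at 0.95 (0.38 to 1.56), and Fen1 (-0.14, -0.59 to 0.32), Rfc2 (-0.08, -0.28 to 0.13) and Pcna (-0.07, -0.54 to 0.42) lay lowest. In early CB the sums lay close to WT. CK over WT was 0.06 (-0.0016 to 0.12), K -0.04 (-0.10 to 0.02) and C -0.0049 (-0.07 to 0.06), with 19 members above and 19 below the median gene in CK, but by role the fork protection group was lower in K early CB, at -0.51 (-0.68 to -0.34). Nucleotide supply was higher there in C (0.27, 0.06 to 0.47), K (0.21, 0.01 to 0.40) and CK (0.24, 0.05 to 0.43), and fork synthesis in CK (0.18, 0.01 to 0.36), while the other role intervals in early CB included 0. In prememory cells the intervals of all 3 ratios included 0.

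Adding the cells above the gene limit changed the genotype comparison. With them, the CB sum of CK over WT was 0.16 (0.14 to 0.18) instead of 0.89, that of K -0.06 (-0.08 to -0.04) and that of C -0.0013 (-0.02 to 0.02). None of the 38 members was then more than 1.5-fold higher in CK, beside 3.92% of genes, and none lower, beside 5.98%. In transitioning cells the ratios were 0.13 (0.11 to 0.15) for CK, 0.18 (0.15 to 0.20) for K and -0.10 (-0.12 to -0.07) for C, with 0 members past 1.5-fold upwards (3.83%) and 0 downwards (5.58%) in CK. In CC they were 0.08 (0.02 to 0.15) for CK, 0.09 (0.03 to 0.15) for K and -0.15 (-0.21 to -0.08) for C, with 2 of 36 members past 1.5-fold upwards (5.18%) and 1 downwards (6.16%) in CK. In CB of CK, 30 of 38 members lay above the median gene with the cells added, led by Gins2 at 0.45 (0.25 to 0.66), Mcm4 at 0.40 (0.29 to 0.50) and Rad51ap1 at 0.34 (0.20 to 0.49). Rrm1 lay below it, at -0.11 (-0.20 to -0.02). Cells above the limit were 453 of the 636 CB then counted in WT and 466 of 1479 in CK. Among the CB above the limit alone, CK over WT was 0.16 (0.13 to 0.18). The T-like cells, which are not GC B cells, gave 0.20 (0.16 to 0.24) for CK, -0.19 (-0.24 to -0.14) for K and -0.11 (-0.16 to -0.06) for C.

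**Figure D4:**
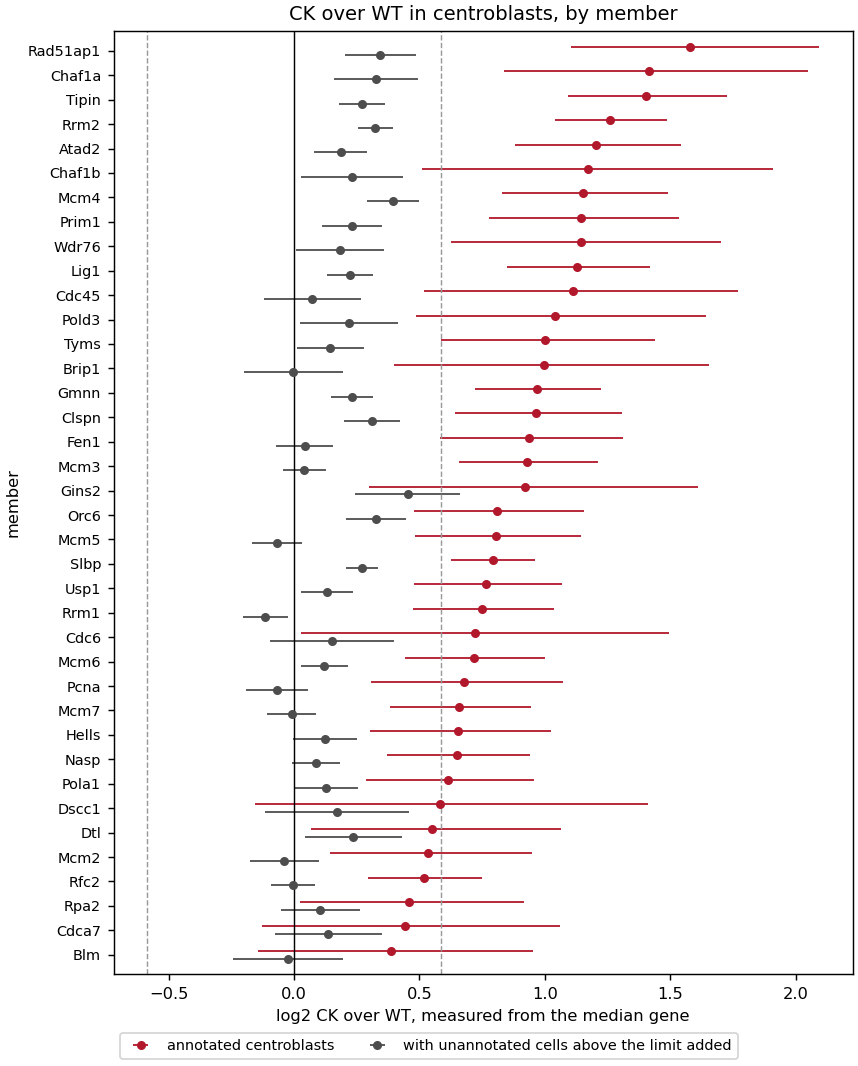
Log2 ratio of CK over WT for each member in CB, measured from the median gene, in annotated cells (red) and with unannotated cells above the limit added (grey); bars are exact 95% intervals and dashed lines mark 1.5-fold. In annotated CB the points run from 0.39 to 1.58, and with the added cells from -0.11 to 0.45.

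Cells were also counted. Each cell was thinned to 2000 UMIs, and a cell with UMIs of 3 or more members was counted. Among annotated cells these were 55.1% (52.2 to 58.0) for WT, 61.9% (59.7 to 64.1) for C, 67.3% (65.5 to 69.2) for K and 77.4% (76.1 to 78.8) for CK, which is 22.3 points (19.2 to 25.5) above WT for CK. With the subtypes weighted by their share in WT, the differences were 13.3 points for CK and 4.76 for K, against 12.2 unweighted for K. Cells under 2000 UMIs were left out, 44 in WT and 330 in CK, and without thinning the shares were 85.4%, 78.3%, 83.3% and 83.3%, highest in WT, the deepest library. With the cells above the limit added the thinned shares were 71.1%, 70.0%, 73.8% and 80.5%, and the CK difference was 9.37 points (7.09 to 11.7). T-like cells of the same libraries gave 27.3%, 27.2%, 21.5% and 31.3%, at median depths of 3280, 2392, 2777 and 1971 UMIs. Thinning left out 100 of 1509 T-like cells in WT, 501 of 1907 in C, 265 of 1695 in K and 1625 of 3143 in CK. The CK share of T-like cells thus rests on the deeper cells of that library. Within subtypes, early CB were at 100% in each library, so that this measure could not separate them, and CB ran from 60.3% (52.7 to 67.7) in WT to 83.9% (81.5 to 86.2) in CK. CC ran from 35.9% to 48.6% and prememory cells from 30.3% to 41.5%, nearer to the T-like shares. In CK, 161 of 936 CC and 59 of 115 prememory cells were left out by thinning. Most CB with 3 or more members also had 3 or more G2M genes, 60.3% of all CB in WT and 80.7% in CK, whereas in transitioning cells both were met by 10.5% in WT and 20.1% in CK. The G2M cut alone was met by 94.3% of CB in WT and 95.2% in CK. In transitioning cells it was met by 11.2% in WT and 21.7% in CK. These shares bound the overlap, so no link between the lists is read from it.

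The other replication genes are described by counts. Of 53 further genes chosen for this comparison, 52 had at least 20 UMIs over CK and WT in CB, 26 of them were more than 1.5-fold higher in CK (12.8% of all genes) and 2 lower (10.4%), and their median log2 ratio was 0.58 against 0.87 for the members. The genes named here were chosen after their values were seen. Tk1, thymidine kinase, was at 64.4 CPM in WT CB and 166 in CK, Dnmt1, the maintenance methyltransferase, at 140 and 309, and Rfc4, a clamp loader subunit, at 91.5 and 203. The origin recognition subunits Orc2 (44.7 and 27.2 CPM) and Orc1 (6.24 and 3.61 CPM) were the 2 that were lower. The 28 G2M genes had a median of 0.22 in CB, with 8 higher and 1 lower, beside the same shares of all genes. In transitioning cells, however, 17 of 28 G2M genes were more than 1.5-fold higher in CK, beside 7.52% of genes, and their median was 0.77 against 0.67 for the members. With the cells above the limit added, none of the 53 further genes was past 1.5-fold upwards in CB (3.92% of all genes), and 1 was past it downwards (5.98%). The medians there were 0.09 for these genes and -0.02 for G2M. In transitioning cells none of the 28 G2M genes was then past 1.5-fold, beside 3.83% of all genes upwards and 5.58% downwards. Of 52 further genes, 3 were higher there. The medians were 0.14 for G2M and 0.15 for the members.

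In K single members stood at very different levels against WT, as genes in general did. Pola1, the catalytic subunit of polymerase alpha, stood at 72.8 CPM in K early CB against 106, 181 and 194 in WT, C and CK, and at 42.3 CPM in K CB against 89.4, 114 and 133. Mcm4 was at 62.5 CPM in K CB against 88.3, 132 and 191, while its ring partner Mcm7 was at 219 CPM against 126, 152 and 193. Measured from the median gene, Atad2, Pola1 and Usp1 were lowest in K in all 6 cell groups read (early CB, CB, transitioning, CC, CB above the limit and T-like), and Chaf1b, Mcm7, Nasp and Rfc2 were highest in K in all 6. These were chosen after their values were seen. The same place was taken by 13.7% and 9.90% of 7857 genes, against 7.89% and 10.5% of the members. With the cells above the limit added, 7 members were more than 1.5-fold lower in K CB, beside 16.2% of genes: Atad2, Blm, Brip1, Clspn, Mcm4, Pola1 and Usp1. In T-like cells 11 members were lower in K by that fold, beside 15.4% of genes, among them Pola1 (-1.18, -1.83 to -0.57), Usp1 (-1.04, -1.30 to -0.79), Mcm4 (-0.96, -1.24 to -0.69) and Atad2 (-0.82, -1.10 to -0.54). The members' shares lowest or highest in K in all 6 cell groups were thus close to or below those of all genes. The count lower in T-like cells (11 of 38, beside 15.4% of genes) lay above the share of all genes. So did the counts higher in annotated CB (22 of 38, beside 11.0%) and annotated transitioning cells (18 of 38, beside 8.46%). Nothing particular to the list is read from the places of single members in K.

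**Figure D5:**
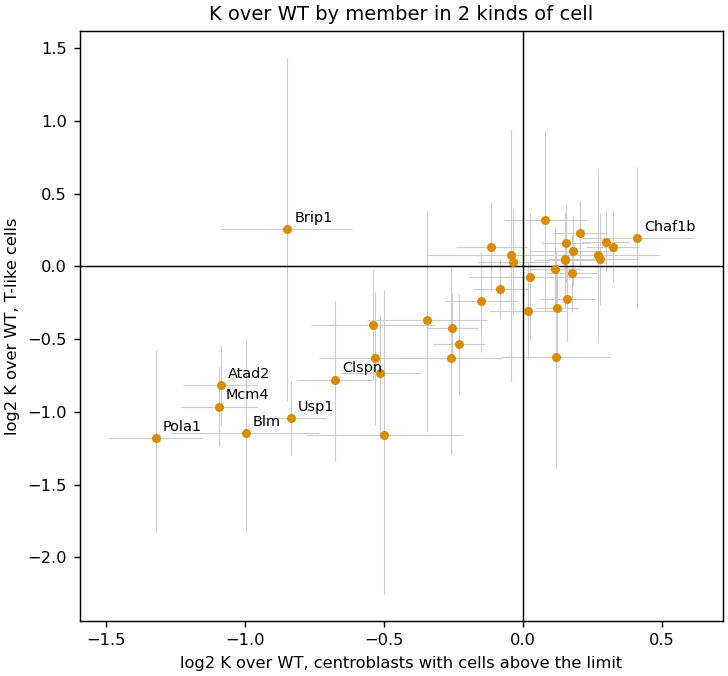
Log2 ratio of K over WT for the 38 members, measured from the median gene, in CB with the cells above the limit added (horizontal) and in T-like cells (vertical); bars are exact 95% intervals. Pola1, Mcm4, Atad2, Usp1 and Blm run from -0.82 to -1.18 in T-like cells and from -0.83 to -1.32 in CB, and Chaf1b lies above 0 in both, at 0.20 and 0.41.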

How the data were processed

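Single-cell libraries of the Chromium 3′ kit were made from 1 mouse of each genotype. The authors ran Cell Ranger (3.0 in the submitters' processing notes) on mm10 and deposited raw UMI counts per gene and barcode, without normalization. The authors also deposited a Seurat 4.0 table of GC B cells with subtype, pseudotime rank, detected genes, the percent of mitochondrial UMIs and module scores. The deposited scores share genes with the list and were used for no comparison.

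Members and lists were chosen with earlier results of these data known, as was the rule naming clusters from markers above 1/4 of their highest level. The UMIs of each subtype were added up within a library and given as CPM with exact Poisson intervals. Ratios have exact conditional binomial intervals and are centred on the median gene with 20 or more UMIs over both libraries. Shares have Clopper-Pearson intervals after thinning to 2000 UMIs. Pseudotime positions used the WT ranks of the comparison with C. Cells of 2500 or more genes and under 8% mitochondrial UMIs were labelled from 30 principal components that left out immunoglobulin, mitochondrial and member genes. Of the annotated cells, 86.3% regained their own label this way (67.9% of early CB). Scrublet marked 3.37% to 4.96% of barcodes, with the threshold of C set to the mean of the other libraries, and its calls were kept except in an alternative. Named were the 2 highest members of each of 7 role groups in CB, the 3 highest and 3 lowest CK over WT ratios in CB and CC among members with 50 or more UMIs, and Mcm2-7. Others were named after their values were seen. The tools were Python 3.11.15, scanpy 1.11.5 and scipy 1.17.1. Only the ratios and intervals were tested on simulated counts, which held no spread between cells.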

Additional observations from a re-analysis of the deposited data

How the results depend on the processing

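Of 159 values recomputed for 24 results, 78 moved by less than their counting interval, 71 moved further and 10 were counted as changed in direction. All 20 with Scrublet calls removed were among the 78. So were 9 with immunoglobulin, mitochondrial and ribosomal genes left out of the total. Those 9 could not move, since centring on the median gene cancels the total. The 10 do not hold every change of sign. C in CC, at 0.063 (-0.017 to 0.14) in annotated cells, also fell below 0 with the cells above the gene limit added and with thinning. The cause of the changes was not tested, beyond the cells or genes each alternative adds or removes. With the cells above the gene limit added, log2 ratios over WT for C, K and CK became -0.0013, -0.061 and 0.16 in CB, -0.098, 0.18 and 0.13 in transitioning cells, and -0.15, 0.088 and 0.084 in CC. The share differences became -1.10, 2.71 and 9.37 points. In annotated cells CB over CC was 1.11, 1.64, 1.47 and 1.70 (log2) for WT, C, K and CK. With the cells added it became 1.71, 1.86, 1.55 and 1.78. Members past 1.5-fold in CK became 0 higher in CB, and 2 higher and 1 lower in CC (5.18% and 6.16% of genes). With thinning to 2000 UMIs as well, an alternative chosen after seeing the data, the ratios were -0.016, -0.092 and 0.16 in CB and -0.11, 0.17 and 0.21 in transitioning cells. Set against the same ratio in T-like cells, the values were 0.69, 0.85 and 0.66 in CB, 0.39, 0.78 and 0.45 in transitioning cells, and 0.21, 0.52 and 0.19 in CC, so that CK no longer led. Without thinning, the share differences turned to -7.07 (C), -2.14 (K) and -2.16 (CK) points. They were 3.15, 6.70 and 14.0 points at 2 or more members, 16.7 (K) and 26.6 (CK) at 5 or more, and 4.76 (K) and 13.3 (CK) with subtypes weighted as in WT.

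Without centring, K stood at 0.46 in CB, 0.40 in transitioning cells and 0.14 in CC, CB over CC at 1.24 (WT), 1.71 (C) and 1.57 (K), and the step at the gene limit at 0.88, 0.31, 0.19 and 0.16 in WT, C, K and CK. With annotated cells thinned, the ratios were 0.51 (K) and 0.84 (CK) in CB, 0.16, 0.48 and 0.58 in transitioning cells and -0.036 for C in CC, CB over CC was 1.02 (WT), 1.33 (K) and 1.64 (CK), and the step was 1.01, 0.45, 0.34 and 0.28. The median of the members gave 0.49 for C in CB, 0.20 (C) and 0.67 (CK) in transitioning cells, 0.45 for CK in CC, and CB over CC of 1.21 (WT) and 1.71 (C). Without the 5 highest members, K in CB was 0.53, CK 0.66 in transitioning cells and 0.42 in CC. Labels from the same library put the step at 1.03 (WT) and 0.31 (C), and labels made with the members at 0.20 (K). At 2-fold, 13 members were higher in CK CB (5.08% of genes) and 2 in CC (1.41%). With 1 library per genotype no replicate could be left out, and CC values of members with few UMIs are limited by depth.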
